A study of Rattus norvegicus with 56 samples.

Results

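Pnpla3 and 5 other genes that act at the surface of the lipid droplet were followed in the rat mammary gland: the lipases Pnpla2 and Lipe, and the droplet proteins Plin1, Plin2 and Cidec. The genes were selected on the treatment differences of these same rats, Pnpla3 for its large difference in log2 value. Every probe set that the platform's annotation assigns to 1 of these symbols alone, after an update through the Entrez gene ID, was taken. This gave 6 probe sets of the 15866 used, for 5 of the 6 listed genes, since Cidec is not in that annotation and was skipped. Because the treatment contrast was used to list the genes, their treatment differences are given as a description with a standard error and no p-value. Oestrous stage, and its interaction with treatment, were not used to list them and were tested.

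The rats were female Wistar Furth, an inbred strain, and the tissue was the mammary gland. The labels name 1 arm RXR treatment, RXR usually standing for the retinoid X receptor, and the other control. The sources used here do not give the compound, its dose or the rats' age. Each of the 12 treated and 12 control rats had an array. Diestrus was recorded for 6 treated and 9 control rats. Of the other treated rats, 3 were in estrus, 1 in proestrus and 2 in proestrus or estrus. Of the other control rats, 2 were in estrus and 1 in proestrus or estrus. Labelled targets of the same rats were also mixed into 6 treated and 6 control pools of 2, 4 and 4 pools of 3, and 1 and 1 pool of 12, which was hybridised 4 times in each arm. Rat 3 of each arm had 2 further arrays. The pools therefore hold no rat that was not also measured alone.

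Fat is stored as triglyceride in lipid droplets, whose surface carries coat proteins of the perilipin family and the enzymes that break the fat down. In adipocytes, Pnpla2 (adipose triglyceride lipase) removes the first fatty acid, Lipe (hormone-sensitive lipase) acts on the resulting diglyceride, and Plin1 holds the process back until it is phosphorylated after adrenergic stimulation. Plin2 coats droplets in many cell types and, in the mammary gland, the fat globules of milk. The mammary gland of a rat that is not lactating is an epithelial tree embedded in a fat pad, so that adipocytes and epithelium both contribute to its RNA.

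Values were read as log2, a scale inferred from their range, so that 1 unit is a doubling. They ran from 4.12 to 14.08 and the array medians from 7.40 to 7.48, and the number of arrays limits the precision. Of the markers of the gland's cell types, the epithelial genes Epcam and Krt18 averaged 11.82 and 11.09 in control rats and the adipocyte gene Fabp4 12.73. The third technical repeat of the control pool of 12 stood apart from the other arrays of its pool. Over 15866 probe sets, with the rats' mean subtracted, it correlated with them at r = 0.0801 to 0.186, while they correlated with each other at 0.739 to 0.789. Differences between the pools of 12, and the members' ratios to the repeat SD, are given with and without it. The technical score below was computed only with it.

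Pnpla3, a patatin-like phospholipase domain protein found on lipid droplets with lipase and acyltransferase activities described for it, is at chr7:117173485-117194065 of the GRCr8 assembly and was read by probe set 1391544_at. Pnpla2, its relative in the same family, is at chr1:205982279-205987361 and was read by 1371697_at. The promoter stretches of this pair are shown because both genes were higher in treated rats and varied together between rats. They are from RefSeq, build GRCr8, plus strand, and end at the base before the annotated gene. Capitals mark matches, on either strand, to the GC box GGGCGG, the CCAAT box and the cAMP response element TGACGTCA.
Pnpla3, chr7:117173278-117173484: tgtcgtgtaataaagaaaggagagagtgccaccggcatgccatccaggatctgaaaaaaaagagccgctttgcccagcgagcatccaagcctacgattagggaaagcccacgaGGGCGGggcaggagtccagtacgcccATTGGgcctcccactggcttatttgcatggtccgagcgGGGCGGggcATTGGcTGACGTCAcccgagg
Pnpla2, chr1:205982029-205982278: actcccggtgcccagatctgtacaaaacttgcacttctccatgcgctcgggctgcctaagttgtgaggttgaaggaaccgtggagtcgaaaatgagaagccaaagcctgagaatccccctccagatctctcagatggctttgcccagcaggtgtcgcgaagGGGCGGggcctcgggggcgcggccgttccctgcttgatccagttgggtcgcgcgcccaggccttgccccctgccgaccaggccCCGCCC

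Each window of the promoter table spans 300 bases, of which 250 lie before the start site, and 33465 windows of that length were searched on both strands. The Pnpla3 window held 2 GC boxes, 2 CCAAT boxes and 1 cAMP response element, the last at positions -58 to -51 from the start site. The Pnpla2 window held 2 GC boxes and none of the other motifs searched. A GC box was present in 33.1% of all windows, a CCAAT box in 37.5% and TGACGTCA in 1.83%. Plin1 held 1 CCAAT box. Plin2 has 2 start sites in the table, 481 bases apart, of which 1 window held a GC box and the E-box CACGTG, present in 6.42% of all windows, and the other a CCAAT box. No window of a listed gene held TATAAA (14.2% of all windows), the nuclear receptor element AGGTCA (16.2%), its direct repeat AGGTCANAGGTCA (0.0538%) or the sterol response element TCACNCCAC (1.12%). Lipe has no entry in the table.

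Pnpla3 was higher in every treated rat than in any control rat. In the 12 treated rats its log2 value was 8.95 at the lowest, 10.32 at the median and 11.42 at the highest. In the 12 control rats it was 6.48, 7.40 and 8.51. The groups did not overlap, which held for 0.523% of all probe sets in either direction and for 0.384% in the direction of Pnpla3. The means were 10.33 ± 0.69 and 7.42 ± 0.71 (SD, n = 12 each). The difference was 2.91 ± 0.27 (SE), or 7.54-fold on the linear scale. Leaving out each rat in turn moved it between 2.82 and 3.04, the latter without treated rat 3, whose value was the lowest of its arm. On the 2 further arrays of that rat Pnpla3 read 8.79 and 9.26, against 7.33 and 7.17 on those of control rat 3.

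**Figure D1:**
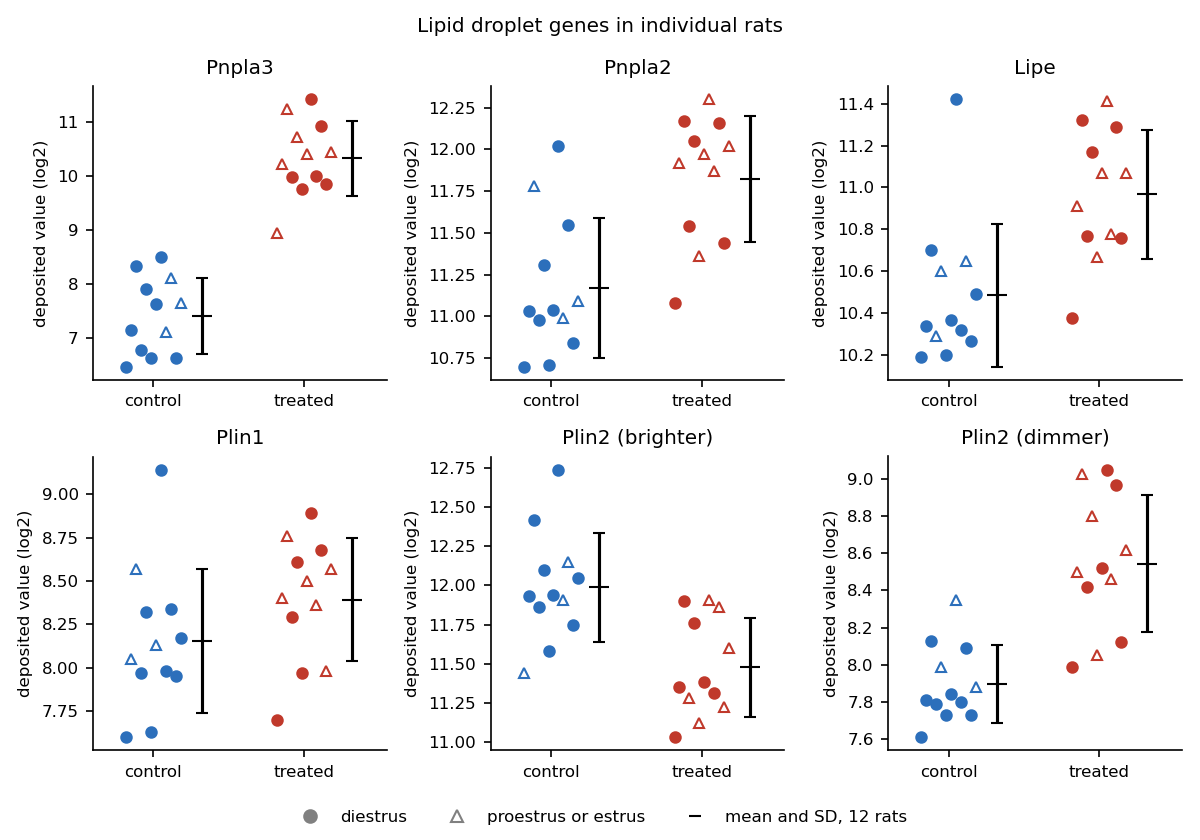
Deposited log2 value of each of the 6 probe sets in the 12 control and 12 treated rats, 1 point per rat, with a scale of its own in each panel. Filled circles are rats in diestrus, open triangles rats in proestrus or estrus, and bars the mean with its SD. Pnpla3 is the panel in which the groups are apart, 6.48 to 8.51 in controls against 8.95 to 11.42 in treated rats, and the panels of the 2 Plin2 probe sets run in opposite directions.

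Pnpla2, which starts the breakdown of stored triglyceride, was moderately higher in treated rats. Its log2 value was 11.08 at the lowest, 11.95 at the median and 12.30 at the highest in treated rats, and 10.70, 11.04 and 12.02 in control rats. The groups overlapped, with 4 of 12 treated rats above every control and 11 of 12 above the control mean. The means were 11.82 ± 0.38 and 11.17 ± 0.42 (SD, n = 12 each), a difference of 0.65 ± 0.15 (SE), or 1.57-fold. Control rat 14 had the highest control value, and without it the difference was 0.73.

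Lipe, at chr1:90093433-90112117 and read by probe set 1387132_at, encodes the lipase that acts after Pnpla2 and is activated by adrenergic signalling. Its log2 value was 10.38, 10.99 and 11.41 at the lowest, median and highest in treated rats, and 10.19, 10.36 and 11.42 in control rats. No treated rat lay above every control, because control rat 14, at 11.42, exceeded all of them, and 11 of 12 lay above the control mean. The means were 10.97 ± 0.31 and 10.49 ± 0.34 (SD, n = 12 each), a difference of 0.48 ± 0.12 (SE), or 1.39-fold. Without control rat 14 it was 0.56.

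Plin1, at chr1:143073612-143086199 and read by 1369449_at, encodes the coat protein that gates the access of both lipases in adipocytes. It was 7.70, 8.45 and 8.89 at the lowest, median and highest in treated rats, and 7.60, 8.09 and 9.14 in control rats. The ranges lay almost on each other, with the highest value again in control rat 14. The means of 8.39 ± 0.36 and 8.15 ± 0.42 (SD, n = 12 each) differed by 0.24 ± 0.15 (SE), or 1.18-fold, less than the SD within either group. Without control rat 14 the difference was 0.33.

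Plin2, at chr5:106202634-106258748, was read by 2 probe sets, and they disagreed in direction. On 1390383_at, the brighter of them, which stands for the gene wherever 1 probe set is needed, treated rats were lower: 11.03, 11.37 and 11.91 at the lowest, median and highest, against 11.44, 11.94 and 12.74 in control rats. On this probe set 7 of 12 treated rats lay below every control and all 12 below the control mean. The means were 11.48 ± 0.32 and 11.99 ± 0.35 (SD, n = 12 each), a difference of -0.51 ± 0.13 (SE), or 1.43-fold higher in controls. On the dimmer one, 1382680_at, treated rats were higher: 7.99, 8.51 and 9.05 against 7.61, 7.83 and 8.35. There, 9 of 12 treated rats lay above every control and all 12 above the control mean. The means were 8.54 ± 0.37 and 7.90 ± 0.21 (SD, n = 12 each), a difference of 0.65 ± 0.12 (SE), or 1.57-fold. No direction is therefore given for Plin2 as a gene. The positions of the probes within it were not used here, and the cause of the disagreement was not tested.

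In the limma fit over all 15866 probe sets, which the list had used, 4 of the 6 passed a Benjamini-Hochberg adjusted p under 0.05 as higher in treated rats, 1 as lower (the brighter Plin2 probe set), and Plin1 did not pass. Of all probe sets, 18.1% passed, 8.46% as higher and 9.59% as lower, and of genes read at 1 probe set each, 20.2% passed. Nothing is read from the members' count.

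The differences kept their sign in each stage class and in every kind of pool. Pnpla3 differed by 2.98 ± 0.35 (SE) between the 6 treated and 9 control rats in diestrus and by 2.71 ± 0.40 between the 6 treated and 3 control rats in the other stages. It differed by 2.82 ± 0.26 between pools of 2, by 2.75 ± 0.20 between pools of 3 and by 3.01 between the pools of 12, where each arm is 1 mixture. Pnpla2 stayed between 0.57 and 0.62 over the same 5 sets and Lipe between 0.43 and 0.51. Plin1 lay between 0.18 and 0.31, and in the pools of 3 it moved from 0.27 to 0.39 when the pools that hold rat 3 were left out. The Plin2 probe sets kept their opposite signs throughout, 0.50 to 0.85 on the dimmer probe set and -0.59 to -0.34 on the brighter probe set. Without the third technical repeat of the control pool, the difference between the pools of 12 was 2.97 for Pnpla3, 0.56 for Pnpla2, 0.43 for Lipe, 0.23 for Plin1, 0.74 for the dimmer Plin2 probe set and -0.52 for the brighter Plin2 probe set.

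**Figure D2:**
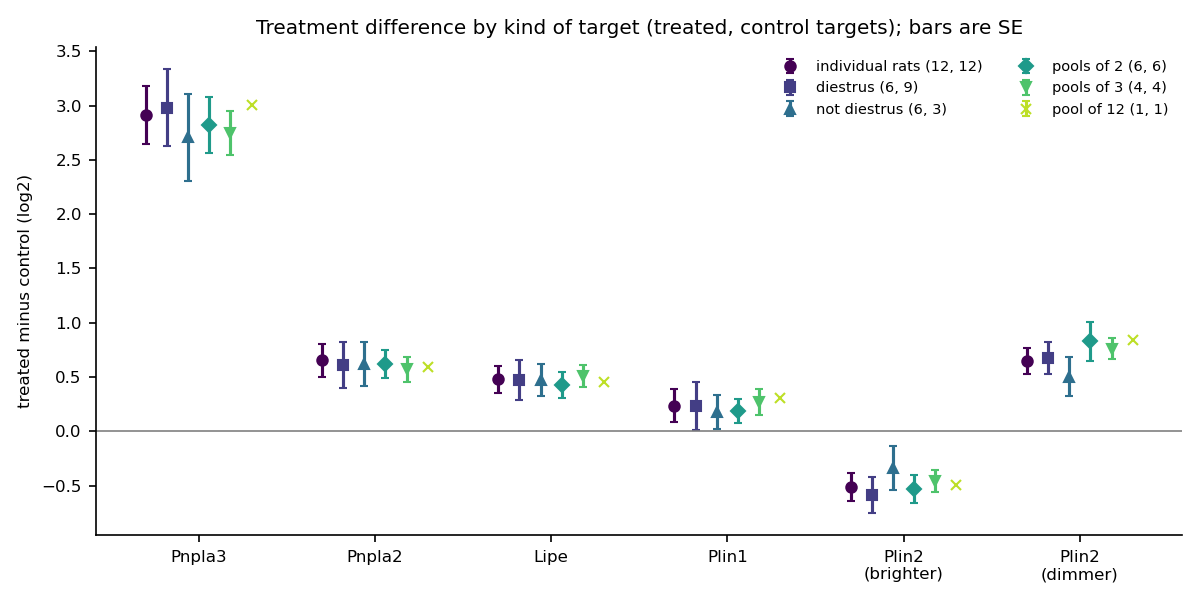
Difference in log2 value, treated minus control, of each probe set in individual rats, in rats in diestrus, in rats not in diestrus, and in pools of 2, 3 and 12, with the number of treated and control targets in the key and bars of 1 SE. The pools of 12 have no bar. Pnpla3 lies between 2.71 and 3.01 in all 6 sets, and Plin2 is below 0 on the brighter probe set and above 0 on the dimmer probe set in each.

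Among pools of 3, Pnpla3 read 9.88, 10.29, 10.63 and 10.85 in the treated and 7.25, 7.54, 7.85 and 8.03 in the control pools. The treated and control pools of 3 did not overlap for 5 of the 6 probe sets, Plin1 being the exception, and this also held for 12% of all probe sets. Among pools of 2, Pnpla3 ran from 9.78 to 11.05 in the treated and from 6.77 to 8.20 in the control pools. Pools of 2 did not overlap for Pnpla3 and both Plin2 probe sets, which held for 4.67% of all probe sets.

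A pool can be set against the mean of its own rats, taken on the linear scale and returned to log2. Pnpla3 in the 12 pools of 2 lay between 0.22 below and 0.24 above that mean, with a median of 0.04, and in the 8 pools of 3 the median was also 0.04. Plin1 was above the mean of its rats in 12 of 12 pools of 2 and Pnpla2 in 8 of 8 pools of 3, by medians of 0.09 and 0.13. At the other pool size Plin1 was above it in 7 of 8 and Pnpla2 in 10 of 12 pools. The median gap was above 0 for every member probe set at both pool sizes, and it was not computed over all probe sets. The widest gap of any member was in the control pool of rats 13 and 15, where the dimmer Plin2 probe set read 7.18, while the rats alone read 7.79 and 8.13.

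Oestrous stage gave no call on any member. Pnpla3 averaged 10.33 ± 0.68 in the 6 treated rats in diestrus and 10.33 ± 0.77 in the 6 in other stages, against 7.34 ± 0.78 in the 9 control rats in diestrus and 7.63 ± 0.50 in the 3 in other stages (SD). By single stage, it averaged 10.63 ± 0.54 in the 3 treated rats in estrus and read 10.72 in the treated rat in proestrus and 8.95 and 10.44 in the 2 labelled proestrus or estrus. The control rats in estrus read 7.11 and 8.11 and the one in proestrus or estrus 7.66. In the order of the 4 treatment and stage classes, the only step larger than the SD of both neighbouring classes was that from treated rats in diestrus to control rats in other stages, 2.70. With treatment in the model, Pnpla3 in the other stages minus diestrus differed by 0.13 (95% interval -0.47 to 0.72, limma adjusted p = 0.999). Leaving out 1 rat moved this between 0.02, without control rat 10, and 0.28, without treated rat 3. With the rat number as a block it was 0.90 ± 0.29 (SE, limma adjusted p = 0.511), outside that interval.

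For Pnpla2 the classes ran from 11.91 ± 0.31 in treated rats outside diestrus and 11.74 ± 0.45 in treated rats in diestrus to 11.29 ± 0.43 and 11.13 ± 0.43 in the same classes of controls. For Lipe the same order held at 10.99 ± 0.26, 10.95 ± 0.37, 10.51 ± 0.20 and 10.48 ± 0.39. In both, as in the dimmer Plin2 probe set (8.58 ± 0.33, 8.51 ± 0.43, 8.07 ± 0.25 and 7.84 ± 0.17), only the step between the arms exceeded the larger SD of its neighbours. Plin1 had no such step, at 8.43 ± 0.26, 8.36 ± 0.46, 8.25 ± 0.28 and 8.12 ± 0.46. The brighter Plin2 probe set had none either, with control rats in diestrus highest at 12.04 ± 0.35, then control rats in other stages at 11.83 ± 0.36, treated rats in other stages at 11.50 ± 0.34 and treated rats in diestrus at 11.46 ± 0.32 (SD).

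The stage differences of the other members, in the same direction of subtraction, were 0.16 (95% interval -0.17 to 0.50) for Pnpla2, 0.04 (-0.24 to 0.32) for Lipe and 0.10 (-0.24 to 0.43) for Plin1. Plin2 gave 0.14 (-0.11 to 0.39) on the dimmer probe set and -0.06 (-0.35 to 0.22) on the brighter probe set. Each had a limma adjusted p of 0.999. The treatment by stage interaction of Pnpla3 was -0.27 (-1.51 to 0.96), so that a change of its treatment difference by over 1 log2 unit between stages lies inside the interval. This value moved between -0.53, without control rat 3, and 0.00, without treated rat 3, and was -0.73 with array weights. The other 5 interactions lay between -0.17 and 0.25, and all 6 limma adjusted p-values lay between 0.9997 and 0.9999. Over all probe sets limma called 0 (0%) for stage and 0 for the interaction. At an unadjusted p under 0.05 it called 581 (3.66%) and 322 (2.03%), with none of the 6 probe sets among either.

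Pnpla3 varied more between rats of 1 arm than almost any other probe set. Its SD between rats, pooled over both arms, was 0.70, higher than that of 99.7% of probe sets, while its SD between repeat arrays of the same target was 0.18, a ratio of 3.87. The ratio was 4.203 for Pnpla2, 5.57 for Lipe, 3.77 for Plin1, 5.36 for the brighter Plin2 probe set and 1.93 for the dimmer Plin2 probe set. The medians over all probe sets were a rat SD of 0.12, a repeat SD of 0.10 and a ratio of 1.19. Without the third technical repeat of the control pool of 12, the repeat SD of Plin1 went from 0.10 to 0.06, and its ratio was 6.50. Without that array the ratio was 3.76 for Pnpla3, 4.27 for Pnpla2 and 6.39 for Lipe. For Plin2 it was 5.71 on the brighter and 2.62 on the dimmer probe set. The medians over all probe sets were not recomputed without that array. Repeat arrays are of the same rat or the same pool of 12, so that the SD between rats also holds whatever differed in the handling of each gland.

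The members varied together to different degrees. The correlations across rats below were computed within each arm, 12 rats at a time, as a description without a test. The points of a pair share an array, and there were 78 correlations in all, over pairs of members and of a member with a marker list or a technical score. Pnpla2 and Lipe correlated at r = 0.95 (rho 0.998) in treated and 0.85 (rho 0.83) in control rats. Pnpla2 and Plin1 correlated at 0.90 (rho 0.95) and 0.93 (rho 0.81). The 2 rats farthest from the median of the first-named measure, here and below, were also left out, which narrows its range. This gave 0.91 and 0.70 for the first pair and 0.90 and 0.82 for the second. Lipe and Plin1 correlated at 0.84 (rho 0.94) in treated and 0.82 (rho 0.56) in control rats, and at 0.83 and 0.45 without the 2 farthest rats, so that the value in controls leans on those rats.

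Pnpla3 followed Pnpla2 at r = 0.80 (rho 0.82) in treated and 0.60 (rho 0.63) in control rats, and 0.78 and 0.59 without the 2 farthest rats. It followed Plin1 at 0.77 (rho 0.80) and 0.64 (rho 0.80), and 0.68 and 0.69 without them. With Lipe the values were 0.74 (rho 0.81) in treated and 0.26 (rho 0.35) in control rats, and 0.71 and 0.34 without them. With the dimmer Plin2 probe set they were 0.91 (rho 0.94) and 0.55 (rho 0.39), and 0.91 and 0.71. The sign turned with the brighter Plin2 probe set, at -0.51 (rho -0.54) and -0.59 (rho -0.51). Without the 2 farthest rats these became -0.10 and -0.50, so that the value in treated rats is weaker without those rats. The 2 probe sets of Plin2 ran against each other also within each arm, at -0.42 (rho -0.53) and -0.56 (rho -0.44). Without the 2 rats farthest on the dimmer probe set, these became -0.18 and -0.09, so that both are weaker without those rats.

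**Figure D3:**
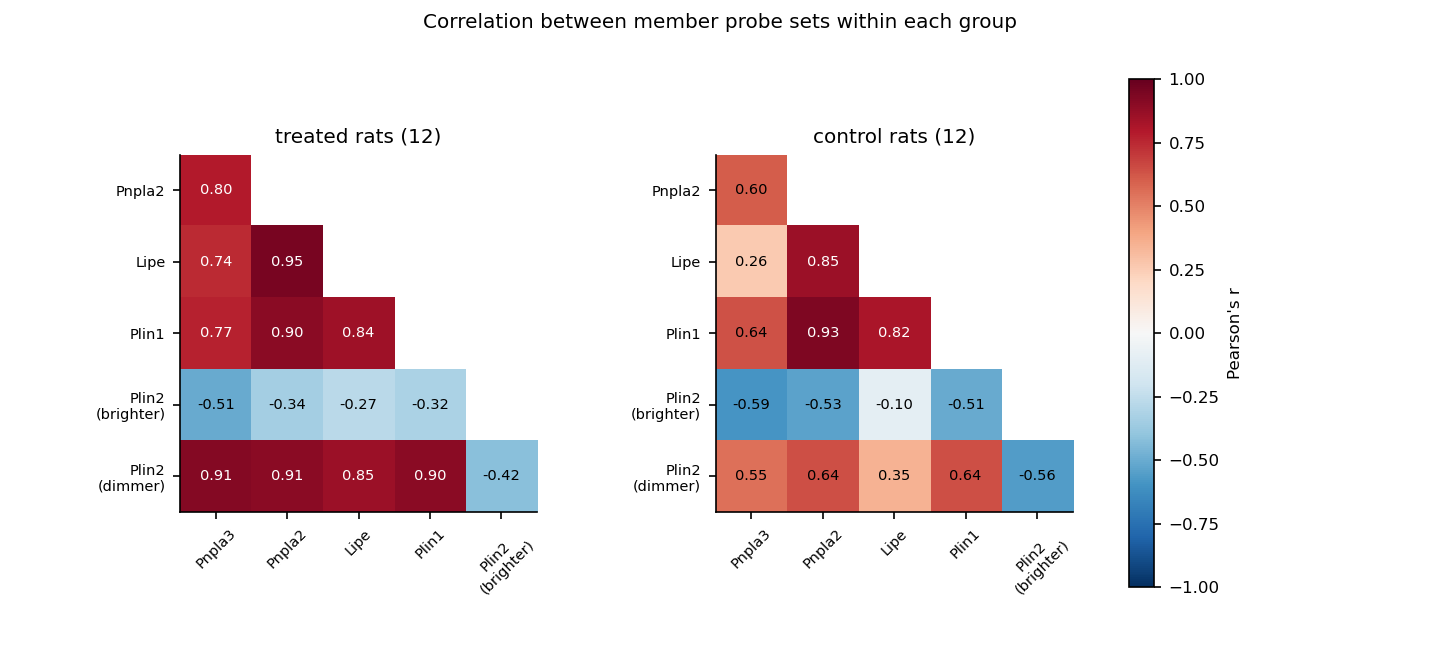
Pearson's r between the 6 probe sets, across the 12 treated rats at left and the 12 control rats at right, as numbers on a colour scale from -1 to 1. Pnpla2, Lipe and Plin1 lie between 0.82 and 0.95 with each other in both groups. The 0.82 of Lipe and Plin1 in controls becomes 0.45 without 2 rats. Pnpla3 with Lipe is 0.74 in treated and 0.26 in control rats. Every r of the brighter Plin2 probe set is below 0. Without the 2 farthest rats, those in treated rats run from -0.44 with Plin1 to 0.07 with Pnpla2. Those in control rats then run from -0.83 to -0.09.

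Of all probe sets with 1 symbol, ranked by the smaller of the r within treated and within control rats, Alad was most like Pnpla3 (0.93 and 0.95, n = 12 each), an enzyme of haem synthesis. Elovl6, a fatty acid elongase, followed with 0.92 and 0.95, then Pex19 (0.91 and 0.91), Nsdhl of cholesterol synthesis (0.95 and 0.90), Agpat2 of triglyceride synthesis (0.96 and 0.90) and Ywhag (0.90 and 0.91). All 6 rose with treatment in the limma fit, from 0.42 ± 0.09 (SE) for Alad, adjusted p = 0.00229, to 2.18 ± 0.29 for Elovl6, adjusted p = 1.01e-05. Of all probe sets 8.46% passed as higher. Their likeness to Pnpla3 used the variation inside each arm and not the difference between arms. Pnpla3 was listed for that difference, however. Inside each arm it also followed the mean of the adipocyte genes described below (r = 0.87 in treated and 0.75 in control rats). That mean was itself higher in treated rats, so that nothing is read from the rise of all 6.

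Closest to Pnpla2 were Fah (0.96 and 0.95), Sik2 (0.95 and 0.95) and Vegfb (0.94 and 0.97). Closest to Lipe were Spsb1 (0.94 and 0.88), Sdhaf2 (0.88 and 0.91) and Nod1 (0.87 and 0.89), and closest to Plin1 the fatty acid binding protein Fabp4 (0.95 and 0.93), Sod3 (0.92 and 0.94) and Mcam (0.98 and 0.91). The Plin2 probe sets had different companions. The dimmer Plin2 probe set was most like Sfxn1 (0.89 and 0.86), the fatty acid elongase Elovl5 (0.85 and 0.87) and Hsd3b7 (0.90 and 0.83). The brighter Plin2 probe set was most like Olah (0.94 and 0.92), the thioesterase that releases medium-chain fatty acids in milk-forming epithelium, Aldoc (0.85 and 0.86) and the zinc transporter Slc30a4 (0.86 and 0.81). Olah was -0.27 ± 0.18 (SE, limma adjusted p = 0.371), and Aldoc fell by 0.48 ± 0.09 (limma adjusted p = 0.000272). Sik2, Nod1, Sod3 and Sfxn1 did not pass either (limma adjusted p = 0.0883, 0.646, 0.723 and 0.0655). Slc30a4, like Aldoc, passed as lower, and the remaining companions named here passed as higher.

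Markers of adipocytes moved with the same contrast. This list and the gene lists below were, like the members, chosen with earlier results of these data known. Their counts and adjusted p-values are therefore given as a description. Of 14 measured adipocyte genes of 17 listed, 11 rose, 1 fell and 2 did not pass, with a median difference of 0.59, while of all 10411 genes 9.81% rose and 10.4% fell, with a median of -0.00. The insulin-responsive glucose transporter Slc2a4 rose by 1.87 ± 0.21 (SE, limma adjusted p = 1.62e-06) and leptin, Lep, by 1.01 ± 0.11 (adjusted p = 1.41e-06). Complement factor D, Cfd, fell by 0.69 ± 0.09 (adjusted p = 8.58e-06), and Cd36 and Car3 did not pass, although the second probe set of Car3 rose by 0.33 ± 0.10 (adjusted p = 0.0176). Among rats not in diestrus 5 of the 14 passed, beside 235 of all 15866 probe sets. The adipocyte genes averaged 10.89 ± 0.31 (SD, n = 12; 10.34 to 11.33) in treated and 10.24 ± 0.24 (9.90 to 10.74) in control rats, the highest control being rat 14. Of 12 luminal epithelial genes, none rose and 8 fell, and their average was 9.21 ± 0.12 (9.01 to 9.41) in treated and 9.51 ± 0.13 (9.32 to 9.68) in control rats. In tissue RNA, more cells of a type and more RNA of a gene per cell cannot be told apart, and the part of cell make-up in the members' differences was not tested.

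The members were also read against the mean of these 14 adipocyte genes in the same rat, a mean that itself differed by 0.65 between the arms. The Pnpla3 value minus that mean averaged -0.56 ± 0.45 in treated and -2.82 ± 0.55 in control rats (SD, n = 12 each), 2.26 apart. The groups did not overlap on this measure, which held for 0.0504% of all probe sets in the same direction and 3.62% in either. The subtraction lowers the difference of every probe set by 0.65, so that few can lie apart as higher. It takes 1 unit per unit of the adipocyte mean, and the slope of Pnpla3 on that mean was not fitted. On this measure the difference between the arms was 0.00 for Pnpla2, -0.00 for the dimmer Plin2 probe set, -0.17 for Lipe, -0.41 for Plin1 and -1.16 for the brighter Plin2 probe set. These values come from the contrast that the list had used and say nothing of how many adipocytes a gland held.

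**Figure D4:**
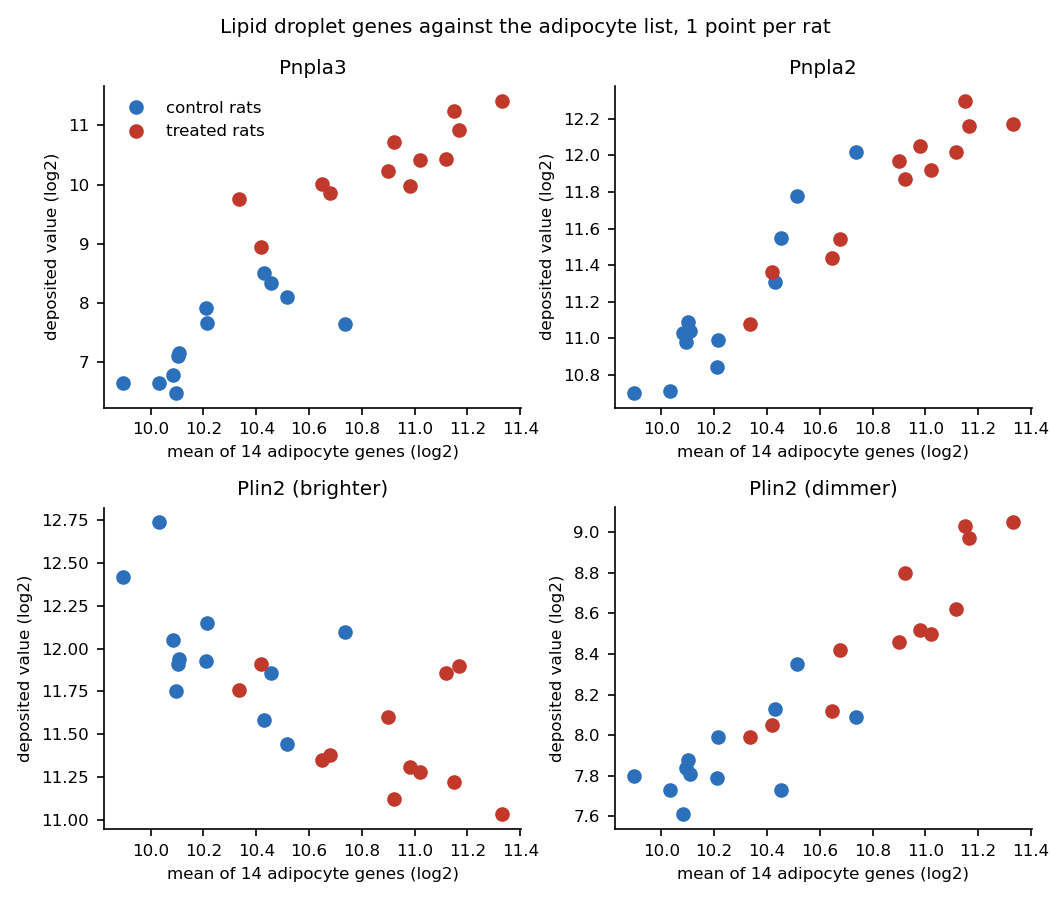
Log2 value of Pnpla3, Pnpla2 and both Plin2 probe sets against the mean of 14 adipocyte genes, 1 point per rat, control rats in blue and treated rats in red. Pnpla2 and the dimmer Plin2 probe set lie along 1 band in both groups, and the brighter Plin2 probe set slopes downward. In control rats the band is looser for the dimmer Plin2 probe set (r = 0.66) than for Pnpla2 (r = 0.94). The red points of Pnpla3 lie above the blue ones, but the groups share adipocyte means only between 10.34 and 10.74, where part of the rats lie.

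Within an arm, the adipocyte mean correlated with Pnpla2 at r = 0.96 (rho 0.93) in treated and 0.94 (rho 0.85) in control rats and with Plin1 at 0.90 (rho 0.95) and 0.96 (rho 0.93). Without the 2 farthest rats these were 0.91 and 0.86 for Pnpla2 and 0.90 and 0.91 for Plin1. With Pnpla3 it correlated at 0.87 (rho 0.90) and 0.75 (rho 0.82), and 0.84 and 0.92 without the 2 farthest. With Lipe the values were 0.91 (rho 0.92) and 0.77 (rho 0.58), and 0.83 and 0.42 without the 2 farthest, so that the value in controls leans on them. With the dimmer Plin2 probe set they were 0.92 (rho 0.94) and 0.66 (rho 0.60), and 0.86 and 0.42 without the 2 farthest. With the brighter Plin2 probe set they were -0.39 (rho -0.39) and -0.50 (rho -0.49), and 0.02 and -0.65 without the 2 farthest. The mean of the luminal epithelial genes correlated with the brighter Plin2 probe set at 0.40 in treated and 0.27 in control rats. With the other member probe sets it ran from -0.79 to -0.67 in treated and from -0.80 to -0.40 in control rats.

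A technical score, the position of an array along the main axis of the differences between repeat arrays, correlated with Pnpla3 at r = -0.38 (rho -0.50) in treated and -0.52 (rho -0.44) in control rats, and at -0.73 and -0.32 without the 2 farthest rats. In treated rats it correlated with Pnpla2 at -0.60 (rho -0.63), with Lipe at -0.52 (rho -0.61), with Plin1 at -0.63 (rho -0.68) and with the dimmer Plin2 probe set at -0.55 (rho -0.71). Without the 2 farthest rats these were -0.66, -0.56, -0.71 and -0.85. The brighter Plin2 probe set was at 0.17 (rho 0.35), and 0.52 without them. In control rats the 5 values ran from -0.34 for the dimmer to 0.40 for the brighter Plin2 probe set. The part of this score in the correlations between members was not tested. With the score as a covariate, the treatment difference was 2.97 ± 0.25 (SE) for Pnpla3, 0.68 ± 0.15 for Pnpla2, 0.48 ± 0.13 for Lipe and 0.26 ± 0.14 for Plin1. For Plin2 it was 0.67 ± 0.11 on the dimmer and -0.53 ± 0.13 on the brighter probe set.

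Of the other genes that control lipolysis, 16 of 20 listed were measured. Of these 8 rose, 2 fell and 6 did not pass, with a median difference of 0.11, beside 9.81% of all genes that rose and 10.4% that fell. The share that fell is thus near that of all genes. Fabp4 and Aqp7 are also in the adipocyte list, so that their rise is counted in both lists. Mgll, the monoglyceride lipase that completes the breakdown, rose by 1.15 ± 0.17 (SE, limma adjusted p = 2.47e-05), on 3 of its 4 probe sets, the fourth at 0.04 not passing. Aqp7, the channel through which glycerol leaves adipocytes, rose by 1.10 ± 0.14 (adjusted p = 6.04e-06). Of the protein kinase A subunits that relay adrenergic signals to the droplet, Prkar2b rose by 1.03 ± 0.13 (adjusted p = 4.14e-06) and Prkaca by 0.23 ± 0.06 (adjusted p = 0.00444). G0s2, the inhibitor protein of Pnpla2, rose by 0.64 ± 0.16 (adjusted p = 0.00621), about as much as Pnpla2 differed.

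The beta-3 adrenergic receptor Adrb3, which starts lipolysis in rodent adipocytes, fell by 0.52 ± 0.11 (SE, limma adjusted p = 0.00204). The other gene that fell was the lysosomal lipase Lipa, by 0.21 ± 0.06 (adjusted p = 0.0106), named after its value was seen. Of the genes that did not pass, Hilpda, another inhibitor of Pnpla2, was at -0.04 ± 0.08, Npr1 at -0.02 ± 0.06 and Insr at -0.03 ± 0.05. In the pools of 3 rats 6 genes of this list passed, and in diestrus alone 3, all of them higher. Over all 15866 probe sets, 990 passed in the pools of 3 and 1385 in diestrus.

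Of the genes for other coats and for droplet formation, 17 of 21 were measured. Of these 3 rose, 2 fell and 12 did not pass, with a median of 0.03. Of all genes 9.81% rose and 10.4% fell, so that the share that fell is near that of all genes. Dgat2, which makes triglyceride, rose by 1.28 ± 0.14 (SE, limma adjusted p = 1.12e-06). Fitm2, needed for droplets to bud, rose by 0.65 ± 0.23 (adjusted p = 0.0478), and the caveolar protein Cav1 by 0.35 ± 0.10 (adjusted p = 0.0173). Acsl3, which activates fatty acids at nascent droplets, fell by 0.36 ± 0.10 (adjusted p = 0.0104) and Ldaf1, the seipin partner, by 0.20 ± 0.05 (adjusted p = 0.00700). Dgat1 at 0.09 ± 0.14, Bscl2 (seipin) at 0.05 ± 0.05 and Rab18 at -0.05 ± 0.06 did not pass. The relatives of the listed coats, named after their values were seen, did not pass either: Plin4 was at 0.26 ± 0.14, Plin3 at 0.02 ± 0.04 and Cidea at 0.12 ± 0.18. With the rat number as a block 3 genes of this list passed, and in the pools of 2 or of 3 only 2 did. Over all 15866 probe sets, 2535 passed with the block, 1400 in pools of 2 and 990 in pools of 3.

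**Figure D5:**
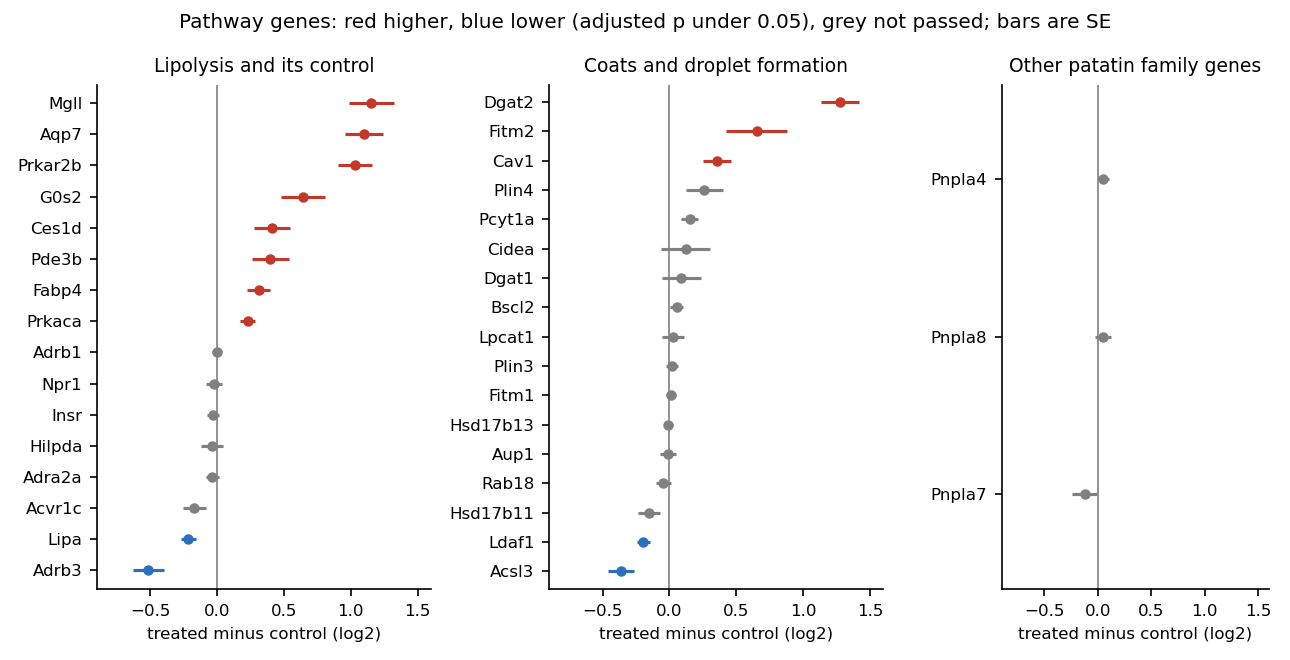
Treated minus control difference in log2 value, with bars of 1 SE, for the measured genes of lipolysis and its control, of droplet coats and formation, and of the patatin family beside Pnpla2 and Pnpla3. Red genes passed as higher, blue as lower and grey ones did not pass. Mgll, Aqp7, Prkar2b and Dgat2 exceed 1, Adrb3 is lowest at -0.52, and the 3 patatin genes are grey.

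The patatin family beside Pnpla2 and Pnpla3 gave no call. Pnpla8 was at 0.05 ± 0.08 (SE), Pnpla7 at -0.12 ± 0.12 and Pnpla4 at 0.05 ± 0.05, with limma adjusted p from 0.530 to 0.722, and these 3 of 6 listed were measured. Of 10 regulators of lipid synthesis, 1 rose, none fell and 9 did not pass, beside 9.81% of all genes that rose and 10.4% that fell. The share that rose is thus near that of all genes. Mlxipl, the glucose-responsive factor ChREBP, known to act on lipogenic genes, rose by 0.89 ± 0.12 (adjusted p = 1.42e-05). Srebf1, the sterol regulatory factor known to drive Pnpla3 in liver, was at -0.13 ± 0.13 (adjusted p = 0.587), and its second probe set at 0.04. Insig1 was at 0.62 ± 0.24 (adjusted p = 0.0786) and Srebf2 at -0.10 ± 0.05 (adjusted p = 0.167). Without treated rat 3, 3 regulators passed, and without treated rat 6, 8 or 14 or control rat 10 or 14, 2 did. With array weights 4 passed, and in the pools of 3 without those that hold rat 3, none. Over all 15866 probe sets, 2520 to 3133 passed with 1 rat left out, 3692 with array weights and 460 in those pools.

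The remaining cell types are given by their counts, beside 9.81% of all genes that rose and 10.4% that fell. Of the brown adipocyte genes 1 of 5 rose, Cpt1b, by 0.52 ± 0.09 (SE, limma adjusted p = 0.000194), named after its value was seen, while Ucp1 was at -0.02 ± 0.04. Of 8 basal epithelial genes 1 rose and 4 fell, of 4 macrophage genes 2 rose and 1 fell, and of 5 endothelial genes 1 fell. No gene passed of 7 fibroblast, 6 lymphocyte and 6 skeletal muscle genes.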

How the data were processed

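Total RNA (5 µg) of each gland was made into labelled, fragmented target, and pools were mixed from targets to 10 µg, per the labels' protocols. The deposited values are log2 by inference: they reach 14.08, above the natural log of a 16-bit maximum, 11.1, and below its log2, 16. The sources used here do not give the authors' software or normalization. The 57 control probe sets were left out. Of the rest, 12783 had 1 symbol, 312 several and 2771 none in the platform's annotation, and 12748 matched RefSeq genes (GRCr8) by Entrez ID.

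The members and gene lists were chosen with earlier results of these data known. Treatment, oestrous stage (treatment as covariate) and their interaction were fitted with limma 3.58.1 (lmFit, eBayes; R 4.3.3) on 1 array per rat, 24 in all, with Benjamini-Hochberg adjustment over 15866 probe sets and a threshold of 0.05. Proestrus and estrus formed 1 class. Code was checked on simulated data. A gene with several probe sets was read on that with the highest mean. Named genes were all member probe sets, up to 6 passing genes per list by p and 3 others by level, and the 6 genes most like Pnpla3 (3 for other members). Rats are separate animals. Rat numbers shared by the arms were not used as pairs in the main fit, and a fit with them as a block is given with the processing alternatives. The repeat arrays of a pool of 12 carry the source label individual but a pool's title and description, and were taken as pools. Alternatives covered pools, stage, rat number, probe set, a technical score, array weights, normalization, a filter on dim probe sets, the prior, and each individual rat or pool of 3 left out. Other versions were Python 3.11.15, numpy 2.4.6, scipy 1.17.1, pandas 2.3.3 and matplotlib 3.10.9.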

Additional observations from a re-analysis of the deposited data

Results flagged for a closer look

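Of 54 sets of 4 to 10 arrays examined, 4 held an array far from the others of its set, and chance gives about 1 in 20 such sets. Control rat 14 was far above the other control rats in diestrus for Lipe, at 11.42, and for Plin1, at 9.14. The same rat had the highest adipocyte mean of the controls, 10.74, and the lowest luminal epithelial mean, 9.32. Pnpla2 read 11.24 on the third technical repeat of the control pool of 12, the array that stood apart, against 11.35 to 11.37 on the other 3. The brighter Plin2 probe set read 11.48 in the treated pool of rats 10, 11 and 4, below the other 3 treated pools of 3. The causes were not tested.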

How the results depend on the processing

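The treatment fit called 2865 probe sets, and between 2520 and 3133 when each rat was left out. It called 1385 in rats in diestrus, 235 in the other stages, 1400 in pools of 2 (1016 without the pools that hold rat 3), and 990 in pools of 3 (460 without those pools, and 503, 644, 650, 678, 706, 783, 892 and 1020 with each pool left out). All of these use fewer targets. With the rat number as a replicate block it called 2535, and 0 for stage and interaction. Under this block the stage difference of Pnpla3 went from 0.13 to 0.90 ± 0.29 (SE, limma adjusted p = 0.511), outside its interval without the block, and those of the other members to between -0.22 and 0.37. Same-numbered rats of the arms correlated at r = -0.39 to 0.36, with a median of 0.12, and 5 of the 10 exceeded 0.1. Rats with different numbers were not set beside them, so that these values cannot tell whether the numbers pair the rats. The stage count was 0 in the main setting and 1 with array weights and without control rat 3 (0 to 1 over all rats left out). The cause was not tested. The Plin2 difference turned from -0.51 to 0.65 on its other probe set. No member's treatment difference changed sign, and none of its stage or interaction tests passed, under any of the other alternatives. The settings that leave out the pools holding rat 3, or the third technical repeat of the control pool of 12, were chosen after seeing the data. Floors for linear values were not run, the values being log2.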
